A study of Mus musculus with 8 samples.

Results

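The 10 genes described here encode the contractile proteins by which smooth muscle is usually recognised: Acta2, Actg2, Tagln, Myl9, Cnn1, Tpm1, Tpm2, Myh11, Cald1 and Lmod1. They were chosen by symbol from the 54134 genes of the deposited table, and all 10 were found. The cells were wild-type mouse bone marrow stem cells grown with 15% serum and taken through adipogenic differentiation for 14 days, which the labels call bone marrow adipocytes. The Control group (n = 2) had the differentiation alone. The group named GC (n = 3) then received dexamethasone, a synthetic glucocorticoid, at 1e-06 M for 24 hours, and the group named GC+GW9662 (n = 3) received the same dexamethasone with GW9662, an antagonist of the fat cell receptor PPARγ, whose dose the labels do not give. What the Control cells received in place of dexamethasone is not stated, and no group had GW9662 alone, so its addition can be read only on top of dexamethasone. Separate cultures behind the libraries of a group are not stated, so a p-value here is set against a spread that may be technical.

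In smooth muscle, thin filaments of actin wound with tropomyosin slide past filaments of myosin II, and phosphorylation of the regulatory light chain by myosin light chain kinase switches the motor on. Calponin and caldesmon sit on the thin filament and restrain the motor, transgelin binds and bundles actin, and leiomodin starts new filaments. The same genes are switched on outside muscle in pericytes, in myofibroblasts and in stromal cells that form stress fibres. Serum response factor drives most of them through a short promoter motif, the CArG box, with the coactivators myocardin, MRTF-A and MRTF-B.

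All 10 contractile genes were lower in GC than in Control, and 8 of them, all but Cald1 and Myh11, were higher in GC+GW9662 than in GC. Their levels in Control ran from 4.11 TPM (Myh11) to 4767 TPM (Acta2), and GC kept between 0.324% (Lmod1) and 15.9% (Tpm1) of the Control mean. TPM is a level per length of transcript, scaled to the same total in every library. The summed level of the 10 genes was 12454 and 12142 TPM in the Control libraries. It was 491, 499.7 and 514 TPM in GC, and 9969, 9831 and 9996 TPM in GC+GW9662. No library of one group reached the range of another group for this sum, and GC stood farthest from the others. In bulk RNA, fewer cells of a type and less RNA per cell cannot be told apart. Acta2 ranked 16 and 17 among all genes of the Control libraries by TPM, between 2561 and 3696 in GC, and between 35 and 37 in GC+GW9662. Tagln ranked 24 and 25 in Control, 538 to 817 across GC, and 21 and 22 across GC+GW9662.

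**Figure D1:**
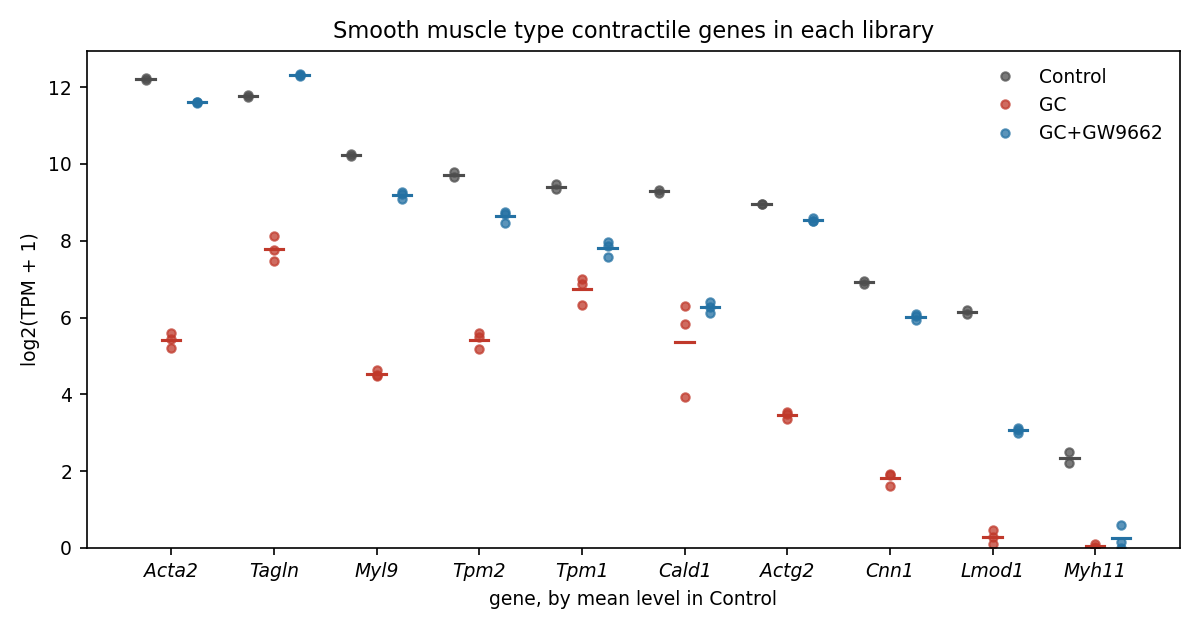
Level of each of the 10 genes in each library as log2(TPM + 1), with a point for each library and a short line at each group mean. Genes run from the highest to the lowest mean in Control. For 9 genes the GC points lie far under the Control points, Tpm1 shows the smallest gap among these, and Myh11 is low in every group.

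Some features of the libraries bear on every value. Estimated depth was 26335071 and 27689423 reads in the Control libraries, 21249429 to 30006889 across GC and 18530817 to 19640383 across GC+GW9662. Every GC+GW9662 library was thus shallower than every other library. Genes that dexamethasone usually raises did not follow the group names: Fkbp5, a chaperone partner of the glucocorticoid receptor, averaged 446 ± 24.1 TPM (SD, n = 2) in Control, 58.5 ± 24.2 (n = 3) across GC and 95.4 ± 14.3 (n = 3) in GC+GW9662. Tsc22d3, the glucocorticoid-induced leucine zipper, averaged 557 ± 20.98 (n = 2), 59.6 ± 7.70 (n = 3) and 429 ± 27.2 TPM (n = 3) in the same order, so the group names below mean the libraries labelled so. Long transcripts were lower than short ones in GC and in GC+GW9662 relative to Control: the median log2 change fell from 0.18 in the shortest of 10 bins of exon length to -1.09 in the longest for GC, and from 0.59 to -1.68 for GC+GW9662. Differences were tested with limma on log2(TPM + 1) over the 14985 genes that reached 1 TPM in 2 or more libraries, a scale that understates changes of low genes, and called at an adjusted p under 0.05. All 10 genes entered the test, Myh11 through its Control libraries alone, so counts over the 10 are descriptions.

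GC was lower than Control for 10 of the 10 genes, against a background in which 39.1% of all tested genes were called lower and 55.3% were called in either direction. The median log2 change of the 10 was -4.70, beside -0.38 for all tested genes. Between GC+GW9662 and GC, 8 of 10 were higher, where 28.3% of all tested genes were called higher and 61.7% either way, and the median log2 change was 3.71 beside -0.11. Between GC+GW9662 and Control, 9 of 10 were lower and Tagln was higher, where 48.6% of tested genes were called lower, 14.1% higher and 62.7% either way. The median there was -1.06 beside -0.49. The 3 comparisons share libraries, so they are not independent of each other.

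**Figure D2:**
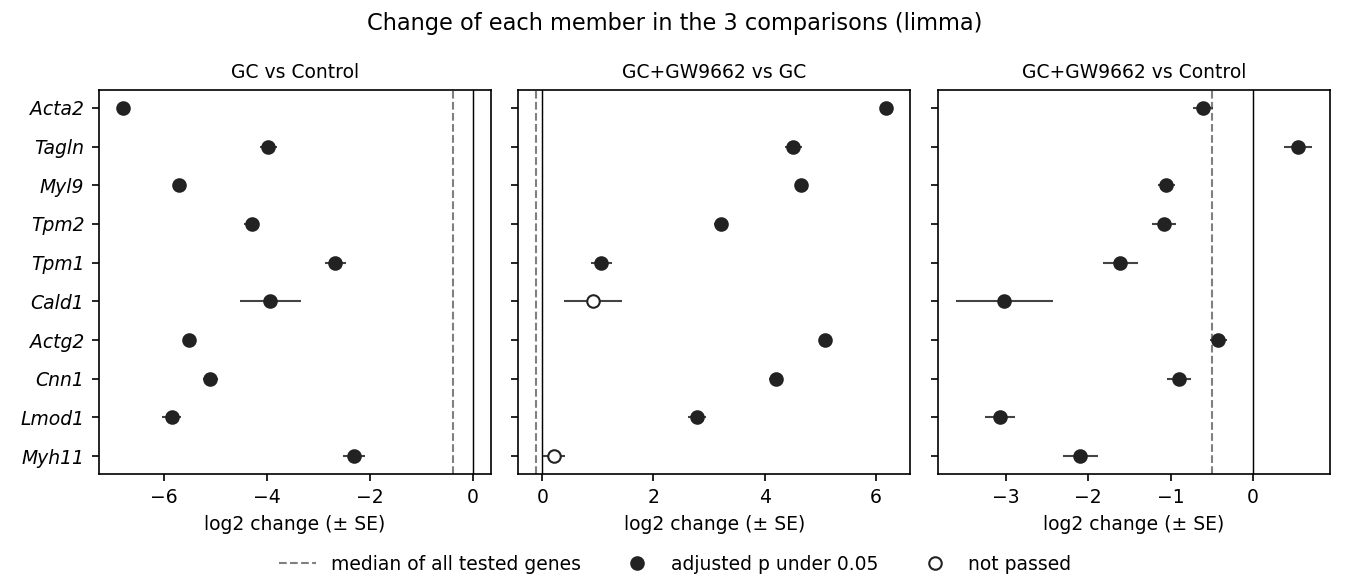
Log2 change of each gene with its standard error in the 3 comparisons, filled where the adjusted p from limma was under 0.05, with the median of all tested genes as a dashed line. The 10 points of GC vs Control run from -6.80 (Acta2) to -2.31 (Myh11). Cald1 and Myh11 are open in GC+GW9662 vs GC, and Tagln alone lies to the right of 0 in GC+GW9662 vs Control.

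The thin filament came first in amount. Acta2, which encodes smooth muscle alpha-actin and lies on chromosome 19 (34241090 to 34255336, minus strand), had 4869.9 and 4663 TPM in the Control libraries. It had 47.7, 36.0 and 42.5 TPM in GC, and 3148, 3071 and 3161 TPM in GC+GW9662. The groups did not overlap, and the GC level averaged 0.883% of Control while GC+GW9662 averaged 65.6%. By limma the log2 change was -6.80 ± 0.12 (SE) in GC vs Control (adjusted p = 6.9e-08) and 6.19 ± 0.11 in GC+GW9662 vs GC (adjusted p = 4.7e-08). The remaining gap between GC+GW9662 and Control was -0.61 ± 0.12 (adjusted p = 0.0041).

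Actg2 encodes the enteric smooth muscle gamma-actin, the other actin isoform of smooth muscle, and lies on chromosome 6 (83512905 to 83536265, minus strand). It had 495 and 500.2 TPM in Control, 10.7, 9.17 and 10.2 TPM across GC, and 364, 383 and 367 TPM across GC+GW9662. The groups again did not overlap, with GC at 2.01% and GC+GW9662 at 74.6% of the Control mean. The log2 changes were -5.51 ± 0.10 for GC vs Control (limma, adjusted p = 6.9e-08), 5.08 ± 0.09 for GC+GW9662 vs GC (adjusted p = 4.7e-08) and -0.42 ± 0.10 for GC+GW9662 vs Control (adjusted p = 0.0081). The remaining gap of both smooth muscle actins to Control depended on scaling: with median-ratio scaling it was 0.085 for Acta2 (adjusted p = 0.75) and 0.27 for Actg2 (adjusted p = 0.21).

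The smooth muscle actins differ enough in sequence for reads to tell them apart. The coding sequences of Acta2 and Actg2 were identical at 948 of 1131 aligned positions (83.82%). The last 60 coding bases, shown to let the difference be seen, differed at 11 positions, which are in capitals (GENCODE M21 transcripts, read 5′ to 3′ and ending with the stop codon).
Acta2: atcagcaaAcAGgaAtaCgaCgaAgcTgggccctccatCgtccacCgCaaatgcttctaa
Actg2: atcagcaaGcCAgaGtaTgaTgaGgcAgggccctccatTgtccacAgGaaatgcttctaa
Of the 50-base windows of the longest coding transcript, 0.3525% in Acta2 and 0.4% in Myh11 were also found in another gene's transcript. No window of the other 8 genes was, so a read of that length would place nearly all their transcripts uniquely. How reads that match several genes were treated is not stated.

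Promoters are shown because the CArG box is the promoter element through which serum response factor is known to act on genes of this kind. RefSeq promoters (GRCm38.p6) were found for 7 of the 10 genes, 8 promoters in all, and the 250 bases before the start were searched for the CArG box. The start is that of the promoter entry, which for Acta2 and Myl9 differs from the gene coordinates printed here. The box is 10 bases long and reads as itself on the opposite strand, so both strands were searched at once. An exact box was present in 1.47% of all 32851 promoters, a box with 1 of its 6 middle letters changed to G or C in 7.24%, either kind in 8.59%, and at least 2 boxes of either kind in 0.67%. Of the 7 genes, Acta2 and Myl9 held boxes, 2 each. The boxes are in capitals below with 12 bases on each side. For Acta2 they lie at chr19:34255436-34255469 and chr19:34255386-34255419 (minus strand), starting 84 and 34 bases before the start and both with 1 letter changed. For Myl9 they lie at chr2:156775291-156775324 (exact, 161 bases before the start) and chr2:156775353-156775386 (1 letter changed, 99 bases before), on the plus strand.
Acta2 first: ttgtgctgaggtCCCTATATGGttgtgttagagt
Acta2 second: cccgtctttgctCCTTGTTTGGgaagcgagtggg
Myl9 first: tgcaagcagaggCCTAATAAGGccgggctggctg
Myl9 second: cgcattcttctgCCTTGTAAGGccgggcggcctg
No box of either kind was in these windows for Lmod1, Tpm2, Cald1, Cnn1 or Tpm1, which says only that the letters are not there. A match in letters is not a measured binding site.

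Both tropomyosins, the coiled coils that lie along actin and set where other proteins bind, fell by less on the log2 scale than the actins, a difference that was not itself tested. Tpm1 (chromosome 9, 67022590 to 67049406, minus strand) had 708 and 654 TPM in Control, 79.1, 128 and 117 across GC, and 248, 191 and 232 across GC+GW9662. Tpm2 (chromosome 4, 43514711 to 43523765, minus strand) had 882 and 803 TPM in Control, 35.5, 47.0 and 44.2 across GC, and 429, 354 and 415 across GC+GW9662. No groups overlapped for either gene, and GC kept 15.9% of the Control level of Tpm1 and 5.01% of that of Tpm2. The log2 changes in GC vs Control were -2.67 ± 0.21 for Tpm1 (limma, adjusted p = 2.2e-05) and -4.29 ± 0.15 for Tpm2 (adjusted p = 5.2e-07). In GC+GW9662 vs GC they were 1.06 ± 0.19 (adjusted p = 0.0017) and 3.22 ± 0.13 (adjusted p = 8.5e-07). GC+GW9662 stayed under Control at 32.8% for Tpm1 (log2 change -1.61 ± 0.21, adjusted p = 0.0016) and 47.4% for Tpm2 (-1.08 ± 0.15, adjusted p = 0.0017). With median-ratio scaling these gaps to Control were -0.92 for Tpm1 (adjusted p = 0.0033) and -0.39 for Tpm2 (adjusted p = 0.016). Both genes make muscle and non-muscle isoforms by alternative splicing, which gene-level values do not separate.

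Among the contractile genes described here, the motor was represented almost wholly by its light chain. Outside them, the non-muscle myosin heavy chains Myh9 and Myh10 averaged 302 and 16.4 TPM in Control. They averaged 29.6 and 0.876 TPM in GC, and 46.4 and 2.34 TPM in GC+GW9662. Myl9, the regulatory light chain of smooth muscle and non-muscle myosin II (chromosome 2, 156775420 to 156781658, plus strand), had 1224 and 1187 TPM in Control, 21.2, 21.8 and 23.6 across GC, and 613, 538 and 593 across GC+GW9662. The groups did not overlap, with GC at 1.84% and GC+GW9662 at 48.2% of the Control mean. The log2 change was -5.70 ± 0.10 in GC vs Control (limma, adjusted p = 6.9e-08), 4.65 ± 0.09 in GC+GW9662 vs GC (adjusted p = 4.7e-08) and -1.05 ± 0.10 in GC+GW9662 vs Control (adjusted p = 8.4e-04). The last was -0.36 with median-ratio scaling (adjusted p = 0.040) and -0.54 with voom on reads recovered from the TPM steps (adjusted p = 0.0030), an alternative added after the data were seen.

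Myh11 encodes the smooth muscle myosin heavy chain, the most specific marker of differentiated smooth muscle, and was close to the floor of detection. It lies on chromosome 16 (14194535 to 14291372, minus strand) and had 4.63 and 3.59 TPM in Control, 0, 0.0630 and 0.0123 TPM across GC, and 0, 0.112 and 0.511 TPM across GC+GW9662. These values stood for about 321 and 267 reads in Control, 0, 5 and 1 across GC, and 0, 8 and 37 across GC+GW9662. Control was above every treated library, while the treated groups overlapped and 1 library of each was at 0. Since Myh11 entered the test through Control alone, its p-values against Control are descriptions. The log2 change was -2.31 ± 0.22 in GC vs Control (limma, adjusted p = 5.7e-05) and 0.21 ± 0.19 in GC+GW9662 vs GC (adjusted p = 0.36). In GC+GW9662 vs Control it was -2.10 ± 0.22 (adjusted p = 9.2e-04), and these fitted values depend strongly on the pseudocount, with -5.09 at a pseudocount of 0.1 and -0.86 at 5 in GC vs Control.

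The proteins that restrain or bundle the thin filament followed, each with its own degree of return. Tagln, transgelin or SM22-alpha (chromosome 9, 45929619 to 45936058, minus strand), had 3436 and 3539.6 TPM in Control, 280.2, 178 and 217 across GC, and 5019, 5157 and 5068 across GC+GW9662. Its GC libraries kept 6.45% of the Control mean and its GC+GW9662 libraries stood above both Control libraries, at 146%. The log2 changes were -3.97 ± 0.17 (GC vs Control, limma, adjusted p = 1.1e-06), 4.52 ± 0.15 (GC+GW9662 vs GC, adjusted p = 4.8e-07) and 0.54 ± 0.17 (GC+GW9662 vs Control, adjusted p = 0.023). The last call was lost without either Control library (adjusted p = 0.11 without replicate 1 and 0.086 without replicate 2), without any single GC+GW9662 library (0.0501 to 0.058), and with quantile normalization, where the change was 0.13 (adjusted p = 0.51). It was larger with median-ratio scaling, at 1.24 (adjusted p = 0.0071), and with voom on recovered reads, at 1.05 (adjusted p = 0.0024).

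Cnn1, basic or h1-calponin (chromosome 9, 22099216 to 22109630, plus strand), had 124 and 116 TPM in Control, 2.73, 2.08 and 2.78 across GC, and 64.6, 59.7 and 67.8 across GC+GW9662. The groups did not overlap, and the means were 2.11% and 53.4% of Control. The log2 changes were -5.10 ± 0.15 (GC vs Control, limma, adjusted p = 3.1e-07), 4.21 ± 0.13 (GC+GW9662 vs GC, adjusted p = 3.4e-07) and -0.90 ± 0.15 (GC+GW9662 vs Control, adjusted p = 0.0024). With median-ratio scaling the last was -0.21 (adjusted p = 0.32), and with voom on recovered reads -0.40 (adjusted p = 0.033).

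Lmod1, leiomodin 1, the filament nucleator of smooth muscle (chromosome 1, 135324807 to 135368065, plus strand), had 71.7 and 66.8 TPM in Control, 0.0761, 0.209 and 0.388 across GC, and 7.38, 7.74 and 6.96 across GC+GW9662. In reads these were 2997 and 2998, then 3, 10 and 19, then 301, 334 and 304. The groups did not overlap, and GC+GW9662 reached 10.6% of the Control mean. GC stood at 0.324% of Control, the lowest ratio of the 10 genes. The log2 changes were -5.85 ± 0.18 (GC vs Control, limma, adjusted p = 3.9e-07), 2.78 ± 0.16 (GC+GW9662 vs GC, adjusted p = 5.4e-06) and -3.07 ± 0.18 (GC+GW9662 vs Control, adjusted p = 3.9e-04). With so few reads in GC the sizes depend on the pseudocount, with -7.86 at 0.1 and -3.83 at 5 in GC vs Control, and 4.64 and 1.24 in GC+GW9662 vs GC.

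Cald1, caldesmon (chromosome 6, 34598500 to 34775473, plus strand), had 638 and 608 TPM in Control, 14.1, 77.6 and 56.1 across GC, and 75.7, 68.8 and 84.0 across GC+GW9662. GC replicate 1 was far under the other GC libraries, and GC replicate 2 fell inside the range of GC+GW9662. The log2 change was -3.94 ± 0.59 in GC vs Control (limma, adjusted p = 7.1e-04) and -3.02 ± 0.59 in GC+GW9662 vs Control (adjusted p = 0.0036). Between GC+GW9662 and GC it was 0.92 ± 0.53 (adjusted p = 0.16), becoming 1.39 (adjusted p = 0.041) without GC replicate 2 and 0.20 (adjusted p = 0.24) without GC replicate 1. Cald1 too makes smooth muscle and non-muscle forms from the same gene.

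Because the 10 genes fell and returned by different amounts, their order changed between groups. By mean TPM, Acta2 was first in Control and Tagln in GC and GC+GW9662. The ratio of Tagln to Acta2, a measure chosen after the values were seen, was 0.706 and 0.759 in Control, 5.88, 4.94 and 5.10 across GC, and 1.59, 1.68 and 1.60 across GC+GW9662. The 3 groups did not overlap in this ratio, which scaling between libraries cannot change, and GC+GW9662 lay between the other two. An exact two-sided permutation test gave p = 0.2 for 2 against 3 libraries and p = 0.1 for 3 against 3, the smallest p that these numbers allow.

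Exon length ran beside the degree of return to Control in part. Tpm1, Myh11 and Cald1, with the longest joined exons at 6485, 7599 and 12041 bases in GENCODE M21, reached 32.8%, 5.05% and 12.2% of Control in GC+GW9662. Myl9, with the shortest at 1162 bases, reached 48.2%, less than Acta2 (2196 bases, 65.6%) and Cnn1 (2736 bases, 53.4%). Tagln, of 1988 bases, had the highest GC+GW9662 level relative to Control, and Lmod1, of 3948 bases, had a log2 change of -3.07, farther from 0 than that of Tpm1. These lengths join all exons of a gene. The longest coding transcript had 2890 bases for Tpm1, 3948 for Lmod1, 4777 for Cald1 and 6549 for Myh11, so by transcript Tpm1 was shorter than Lmod1. With the trend over exon length removed from each library, an alternative added after the data were seen, the changes in GC+GW9662 vs Control were -0.54 for Acta2, -0.57 for Actg2, 0.53 for Tagln and -2.41 for Lmod1. That of Myl9 moved farther from 0, to -1.33, and those of the genes with the longest joined exons shrank, to -0.45 for Tpm1, -1.41 for Cald1 and -0.80 for Myh11 (limma, adjusted p = 0.047). In GC+GW9662 vs GC, Cald1 was then higher by 1.45 (adjusted p = 0.0038) and Myh11 by 0.74 (adjusted p = 0.031). The removal used joined exon lengths, which for Tpm1 and Cald1 were far above their transcript lengths, so their shrinkage may be overstated. The part of transcript length in these differences was not tested further.

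**Figure D3:**
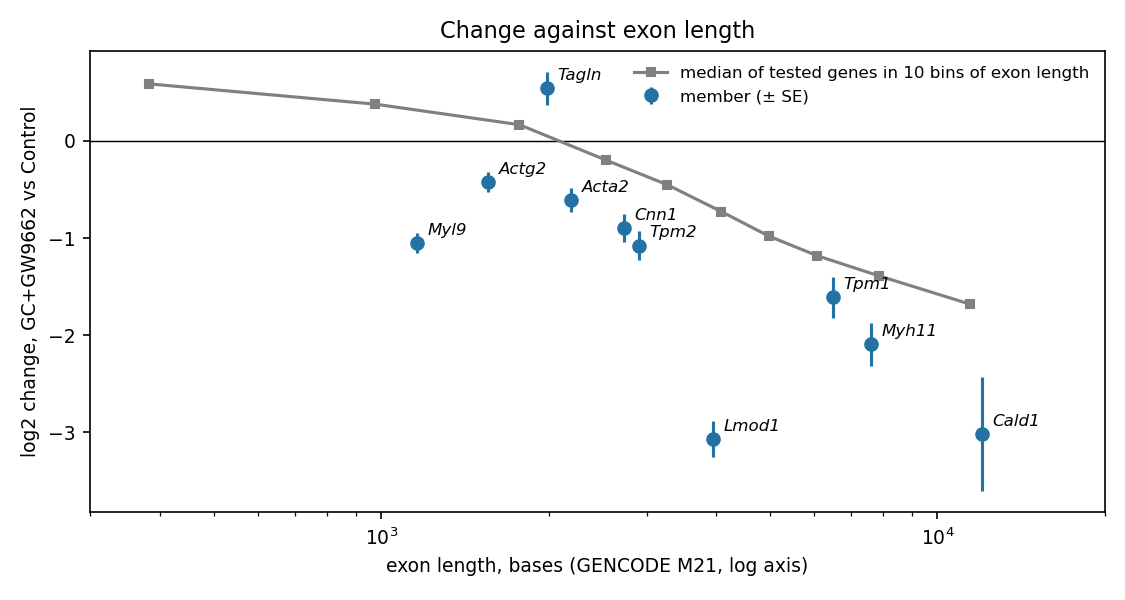
Log2 change in GC+GW9662 vs Control with its standard error against exon length in bases on a log axis, for the 10 genes as labelled points, beside the median of all tested genes in 10 bins of length as grey squares. The grey line falls from 0.59 to -1.68, Tagln lies above 0 and Lmod1 and Cald1 lie lowest.

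In GC the smooth muscle genes also made up a smaller share of their protein families than in Control. Acta2 and Actg2 together made up 59.3% and 57.8% of the TPM of the 6 actin genes in Control, 9.25%, 4.70% and 6.99% across GC, and 70.6%, 70.8% and 70.4% across GC+GW9662. Actb, the cytoplasmic beta-actin, itself fell from 3712 ± 67.8 TPM (SD, n = 2) in Control to 725 ± 174 (n = 3) in GC, a log2 change of -2.38 (limma, adjusted p = 1.8e-05). The share is a ratio within each library, so scaling between libraries does not move it. The exact permutation test gave its smallest possible p in each comparison (0.2 for 2 against 3 libraries, 0.1 for 3 against 3), as it did for the calponin, transgelin and light chain shares.

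Myl9 made up 50.2% ± 0.578 (SD, n = 2) of the myosin regulatory light chain TPM in Control, 4.46% ± 0.540 (n = 3) of it in GC and 32.0% ± 1.20 (n = 3) in GC+GW9662. The other regulatory light chains of this family, Myl12a and Myl12b, averaged 969 and 227 TPM in Control and 409 and 71.3 TPM in GC. Tpm1 and Tpm2 made up 54.7% ± 0.262 (n = 2) of tropomyosin TPM in Control, 30.6% ± 0.563 (n = 3) of it in GC and 53.5% ± 3.22 (n = 3) in GC+GW9662, where Control and GC+GW9662 overlapped (exact permutation test, two-sided, p = 0.8).

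Cnn1 held 15.2% ± 0.0740 (n = 2), 3.32% ± 0.956 (n = 3) and 18.3% ± 1.25 (n = 3) of calponin TPM in the order Control, GC and GC+GW9662. Tagln held 90.5% ± 0.475, 75.3% ± 1.68 and 93.2% ± 0.242 of transgelin TPM with the same numbers of libraries. For both, GC was below Control and GC+GW9662 above it with no overlap. Within the calponins, Cnn2 kept 2.38% of Control in GC beside 2.11% for Cnn1, while Cnn3 kept 23.9%. Myh11 held 1.27% ± 0.158 of conventional myosin heavy chain TPM in Control and at most 1.10% in every treated library, and its treated groups overlapped (exact permutation test, two-sided, p = 0.4). Shares that count on Actg1, Tpm3 or Myl12a are uncertain, since 56.7%, 62.4% and 29.6% of the 50-base windows of their transcripts occur in other genes. For Cnn3, Actb, Tpm4 and Myl12b the shared part was 16.4%, 14.2%, 12.1% and 11.4%.

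**Figure D4:**
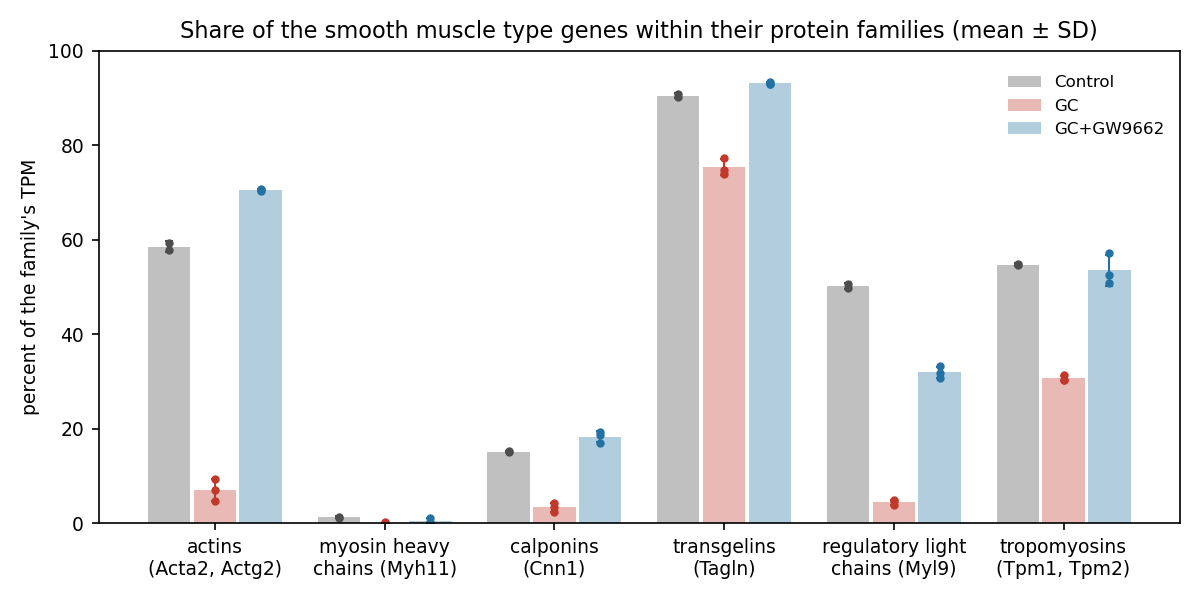
Share of the smooth muscle type genes in the TPM of their protein family, in percent, as bars at the group mean with SD and a point for each library. GC is lowest in all 6 families, and in the actins the shares are 58.6% for Control, 6.98% for GC and 70.6% for GC+GW9662.

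The regulators of these genes were mostly lower in GC than in Control. Srf, serum response factor, averaged 32.3 ± 0.226 TPM (n = 2) in Control, 23.3 ± 3.57 (n = 3) in GC, and lay between 19.5 and 20.7 TPM in the GC+GW9662 libraries. It fell by 0.46 on the log2 scale in GC vs Control (limma, adjusted p = 0.031) and did not pass between GC+GW9662 and GC (-0.20, adjusted p = 0.22). Mkl1, which encodes the coactivator MRTF-A, averaged 55.4, 5.41 and 10.7 TPM, a fall of -3.23 in GC vs Control (adjusted p = 1.1e-04) and a rise of 0.96 in GC+GW9662 vs GC (adjusted p = 0.027). Mkl2, for MRTF-B, averaged 10.8, 3.60 and 1.99 TPM and did not pass between the treated groups (-0.57, adjusted p = 0.097). Myocd, myocardin itself, was at 0.569 TPM in Control, 0 in every GC library and 0.0656 in GC+GW9662, too low to test. Klf4, known to repress smooth muscle genes, averaged 40.9 ± 2.93, 55.2 ± 32.2 and 8.13 ± 0.682 TPM, lower in GC+GW9662 than in GC by a log2 change of -2.41 (adjusted p = 0.0020). Of the 7 regulators tested, 5 were lower in GC than in Control and 0 higher, against 39.1% of all tested genes called lower. Between the treated groups, 2 of 7 were higher and 1 lower in GC+GW9662, beside 28.3% and 33.5% of all tested genes. Their median log2 changes were -1.41 and 0.056.

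Among the enzymes that control light chain phosphorylation, 8 of 10 were lower and 1 higher in GC vs Control, where 39.1% and 16.2% of all tested genes were. In GC+GW9662 vs GC 4 were higher and 1 lower, beside 28.3% and 33.5% of all tested genes. Mylk, the myosin light chain kinase that switches the motor on, had means of 30.6, 0.321 and 12.2 TPM and, in the order of the comparisons above, log2 changes of -4.58 (limma, adjusted p = 9.5e-07), 3.32 (adjusted p = 2.5e-06) and -1.26 (adjusted p = 0.0020). Ppp1cb, the catalytic subunit of the phosphatase that switches it off, was the gene that was higher in GC, at 107 TPM in Control and 191 in GC (log2 change 0.82, adjusted p = 7.4e-04). Prkg1, the cGMP-dependent kinase that promotes relaxation, averaged 18.1, 0.790 and 1.44 TPM, with no call between the treated groups (0.47, adjusted p = 0.095). The kinase Rock2 likewise averaged 63.8, 10.8 and 7.05 TPM, and its change between the treated groups was -0.40 (adjusted p = 0.40).

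The non-muscle counterparts of the 10 genes fell in GC as well, 13 of 14 tested (39.1% of all tested genes), with 0 higher and a median log2 change of -2.04. Of these 14, 10 were higher and 1 lower in GC+GW9662 vs GC (28.3% and 33.5% of all tested genes), with a median of 1.02. Cnn2, the broadly expressed calponin, had the profile of this list nearest to that of the smooth muscle genes, at 393, 9.34 and 167 TPM. Other actin-binding and stress fibre genes of contractile cells were lower in GC for 18 of 20 tested, with 1 higher (median -3.02), and higher in GC+GW9662 vs GC for 10, with 2 lower (median 0.69), against the same backgrounds. Synpo2, counted among the lower genes, would not have passed the filter without its Control libraries. Fhl2, a LIM protein and target of serum response factor, averaged 150.4, 5.02 and 124 TPM. The LIM proteins Csrp1 and Csrp2 joined Tagln above Control in GC+GW9662, at 1138 against 856 TPM (log2 change 0.41, limma, adjusted p = 0.0044) and 409 against 207 TPM (0.98, adjusted p = 0.0025).

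Over the 8 libraries, the non-member genes whose pattern was nearest to the median pattern of the 10 were Igf1, Prrx1, Pid1, Fhl1, Angptl4, Cnn2, Nfam1 and Mylk, among 9554 genes with a mean of at least 5 TPM. Likeness was the root mean square difference of centred log2(TPM + 1), which was 0.164 for Igf1 and 0.241 for Mylk, beside a median of 2.11 over all these genes. Igf1, the insulin-like growth factor, averaged 79.8, 2.33 and 39.9 TPM, and Prrx1, a mesenchymal transcription factor, 169.6, 4.51 and 62.3 TPM. The 10 genes themselves lay from 0.186 (Cnn1) to 1.60 (Myh11) from their own median pattern. Igf1 was nearer to it than any of the 10, and the order is a description of these libraries.

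Markers of several cell types were lower in GC too, where 39.1% of all tested genes were called lower. In GC+GW9662 vs Control, 48.6% of all tested genes were called lower. Of 8 markers of vascular mural cells (pericytes and vascular smooth muscle), 5 were tested. These 5 were lower in GC and in GC+GW9662 than in Control, though Cspg4 entered the test through Control alone. Of these, 3 were higher in GC+GW9662 than in GC, where 28.3% of all tested genes were. Their summed level was 234 to 244 TPM for Control, 5.16 to 7.62 for GC and 49.7 to 59.2 for GC+GW9662, made mostly by Pdgfrb (171, 2.66 and 31.2 TPM). The pericyte markers Higd1b, Abcc9 and Kcnj8 averaged at most 0.372 TPM in any group. Of 11 markers of fibroblasts and marrow stroma, 9 were lower in GC than in Control, with sums of 2101 to 2219, 121 to 407 and 461 to 499.5 TPM, and Lepr entered through Control alone. Between GC+GW9662 and GC 5 of the 11 were higher and 1 lower, with a median log2 change of 0.47 beside 3.71 for the contractile genes. That median covers a split list. The log2 changes of the higher genes were 3.07 (Cxcl12), 2.31 (Col3a1), 2.27 (Col1a1), 1.46 (Col1a2) and 0.66 (Thy1). Dcn was lower (-0.60), and the other 5 did not pass. Adipocyte markers, the labelled cell type, were lower in GC for 6 of 7 and summed to 1424 to 1443, 320.2 to 339 and 1295 to 1448 TPM. The sum in GC was made mostly by Cebpa (254, 287 and 236 TPM in the 3 groups), which was not called lower. Adipoq, Fabp4, Plin1, Cidec and Lpl kept 2.18%, 10.7%, 0.384%, 0.507% and 0.887% of Control in GC, in the range of the contractile genes. Pparg, the gene of the receptor that GW9662 antagonises, kept 38.9%, outside that range, and stood at 232% of Control in GC+GW9662. Of the 7 adipocyte markers, 6 were higher in GC+GW9662 than in GC with 1 lower. Macrophage markers were the most abundant of the lists, at 30710 to 31603, 9444 to 9989 and 24412 to 28381 TPM, and 8 of 9 were lower in GC with 1 higher, while 7 were higher and 1 lower in GC+GW9662 than in GC. The sum in GC was made mostly by Lyz2 (10681, 6136 and 6408 TPM in the 3 groups) and by Cd68, the marker that was higher (979, 2651 and 594 TPM). C1qa, C1qb, C1qc, Csf1r, Mrc1 and Ptprc kept 3.63%, 6.05%, 4.69%, 4.02%, 0.853% and 14.6% of Control in GC, and Adgre1 kept 22.7%. Markers of endothelium summed to at most 3.87 TPM, and those of striated muscle, chiefly Acta1 and Actc1, to at most 5.45 TPM in Control, at most 1.48 in GC and at most 53.1 in GC+GW9662. The part of any of these cell types in the contractile gene changes was not tested.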

How the data were processed

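RNA of 8 libraries was made by a Smart-Seq2 protocol, which does not mark strand, per the labels' protocols. The deposited table gives TPM per gene, made by the authors. The submitters' processing notes name fastp, HISAT2 2.1.0 and featureCounts; the genome build and annotation are not given in the sources used here. For 97.4% of genes the start and end matched GENCODE M21. The table had 54232 rows for 54134 symbols; 96 symbols were repeated with identical values and were used once, and 27 symbols turned into dates were restored. TPM steps gave whole reads (tolerance 0.02) for all but 9 of 26812 genes above 0, 11683 at the M21 exon length and 15120 at a length solved from the values, so depths and reads per gene are estimates.

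log2(TPM + 1) of genes that reached 1 TPM in 2 or more libraries was fitted with limma 3.58.1 (R 4.3.3; empirical Bayes with trend, 3 group means over all 8 libraries, two-sided, Benjamini-Hochberg adjustment over 14985 genes). Shares of a protein family used exact permutation tests over libraries (scipy 1.17.1). The code was tested on simulated data. Named genes were the 10 members, the regulators Srf, Myocd, Mkl1 and Mkl2, the family genes, up to 4 called genes of each list and comparison with the smallest adjusted p, and the 8 genes nearest in pattern; some were left out for brevity, and Fkbp5 and Tsc22d3 were added to check the labels. Marker genes given with their own values were picked after the values were seen. Members and lists were chosen with earlier results of these data known. Alternatives changed the pseudocount (0.1, 5), filter (none, 5 TPM), scaling, prior, libraries, weights and replicate block. Removal of the length trend, voom on recovered reads and the ratio of Tagln to Acta2 without single libraries were added after the data were seen. Amplified reads carry no molecular identifiers.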

Additional observations from a re-analysis of the deposited data

How the results depend on the processing

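The 10 genes were lower in GC than in Control and called under all 22 settings that tested them, the reported one included, or 19 for Myh11, which left the test under a filter of 5 TPM and without either Control library. In GC+GW9662 vs Control, 3 changes reversed: Acta2 was 0.085 and Actg2 0.27 with median-ratio scaling, and Actg2 0.086 with voom on recovered reads, none of them called. That scaling moved the median change of all genes from -0.49 to 0.0067, and the call split from 2114 higher and 7284 lower to 4387 and 4741 (quantile normalization: 4216 and 4443); in GC vs Control it went from 2428 and 5863 to 4070 and 4025. Members called ranged from 9 to 10 in GC vs Control, 8 to 10 in GC+GW9662 vs GC and 7 to 10 in GC+GW9662 vs Control. Leaving out each replicate gave 5513 to 9233 called genes in GC vs Control and 5598 to 10329 in GC+GW9662 vs Control, both lowest without Control replicate 1. Calls in GC+GW9662 vs Control were also lost for Acta2 with voom (-0.098, adjusted p = 0.49), Actg2 without either Control library (adjusted p = 0.064 to 0.065), Cnn1 with median-ratio scaling (-0.21), and Tagln with no filter (adjusted p = 0.052), with quantile normalization (0.13) and without either Control or any single GC+GW9662 library. Cald1 was called in GC+GW9662 vs GC with library weights (0.48, adjusted p = 0.0083). Whether replicate numbers pair the samples is not stated. Deviations of same-numbered GC and GC+GW9662 libraries correlated at -0.0972, -0.1175 and 0.079, which cannot decide it with so few libraries. With the title number as a replicate block 10, 8 and 9 members were called, Tagln in GC+GW9662 vs Control being lost (adjusted p = 0.052), and with the bracketed number 10, 8 and 10. The causes were not tested. Reads limit Myh11 and Lmod1 in GC.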
